A study of Manis javanica with 3 samples.

Results

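Most of the genes described here belong to families of carriers, pumps and channels, some of which move salt and water across secreting epithelia. Members were the genes of the deposited annotation whose Swiss-Prot symbol began with SLC4A, SLC8A, SLC9A, SLC12A, SLC26A, ATP1A, ATP1B, FXYD, CLCN, CLCA, ANO, CFTR, KCNQ, KCNE, KCNJ, KCNN, KCNK, AQP or SCNN1. This rule took 127 of 22538 annotated genes. The expression tables, which list 24220 genes, hold 125 of them; the other 2, among them SLC12A4 (gene23945), have no values there and were not analysed.

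The animal was an adult female Malayan pangolin (Manis javanica), an eater of ants and termites, taken from the wild, that died while being rescued. Its small intestine, salivary glands and liver were frozen and sequenced to look for genes tied to that diet, with 1 library per tissue. No difference given below therefore has a replicate check, and no p-value is given. Counts summed to 10158924 fragments in the library labelled small intestine, 8318686 for salivary gland and 14568778 for liver.

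A fluid-secreting epithelial cell takes up chloride on its basolateral side, through the sodium-potassium-chloride cotransporter and through paired chloride-bicarbonate and sodium-proton exchange, with the sodium gradient kept by the sodium pump. Chloride or bicarbonate then leaves through apical anion channels and exchangers, potassium returns through potassium channels, and sodium and water follow. In salivary glands the acini make the primary fluid and the ducts then remove sodium and chloride from it, whereas the acid-secreting parietal cell of the stomach couples apical potassium channels and chloride exit to a proton pump.

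The label of the first library was checked against lists of cell type markers. Of 16 enterocyte genes, 3 had an FPKM (fragments scaled to transcript length and to the mapped fragments of the library) above 1 in it, and the list summed to an FPKM of 31.9, of which villin (VIL1) made 24.0. The defining enterocyte genes FABP2, LCT and TMPRSS15 had a count of 0 there, as had the intestinal transcription factor CDX1, and sucrase-isomaltase (SI) had 2 fragments. Of 13 genes of gastric chief and pit cells, 11 were above an FPKM of 1 and their sum was 159568, with pepsin A (PGA, gene4646) at 94138 and the acidic chitinase CHIA at 43108. Of 7 parietal cell genes, 6 were above 1, with a sum of 2138, and the proton pump subunits ATP4A and ATP4B reached 1073 and 652. Its markers were thus those of the stomach rather than of the intestine, and it is called the intestine-labelled library below. The smooth muscle list was also high in it, with 8 of 8 genes above 1, a sum of 3589 and transgelin (TAGLN) first at 1023, while the salivary gland sum was 409 and the liver sum 53.3.

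The other labels were met by some of their markers. In the liver library 16 of 16 hepatocyte genes were above an FPKM of 1 and summed to 75032, led by haptoglobin (HP, gene25455) at 25755. In the salivary gland library 5 of 9 genes of the salivary list were above 1, with lactoferrin (LTF) highest at 59.1 and PIP at 28.0; 7 of its 16 symbols had a gene in the tables. Its sum of 159.6 there was below the 1467 of the intestine-labelled library, of which the vitamin B12 carrier TCN1, also a gastric product, made 1456. The list of duct markers written for the bile duct summed to 549 there, with KRT7 at 197, against 84.1 in the intestine-labelled and 48.9 in the liver library. Skeletal muscle genes summed to 30.5 in the salivary gland library, of which ACTA1 made 26.8, and to 27.7 in the intestine-labelled library, of which CKM made 24.8. Sums in the salivary gland library were 7.60 for pancreatic acinar, 1.40 for erythroid, 12.0 for plasma and B cell, 37.8 for macrophage, 40.2 for endothelial, 3.67 for enteroendocrine and 6.63 for adipocyte genes. Each of these lists summed higher in another library. Pancreatic acinar genes reached 42.6 in the intestine-labelled library, and plasma and B cell genes 40.4 in the liver library. The macrophage list was higher in the liver library, at 730, where complement C1QC reached 367. Enteroendocrine genes summed to 148 in the intestine-labelled library, with CHGA at 101, and goblet and Paneth genes to 625, with AGR2 at 573, while the mucin MUC2 had an FPKM of 1.17. The list for myoepithelial and basal cells summed to 921 in that library, with 234 for salivary gland and 3.01 for liver, and 2 of its 6 genes are also on the smooth muscle list. In bulk tissue, fewer cells of a type and less RNA per cell cannot be told apart, and the part of these cell types in the results below was not tested.

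**Figure D1:**
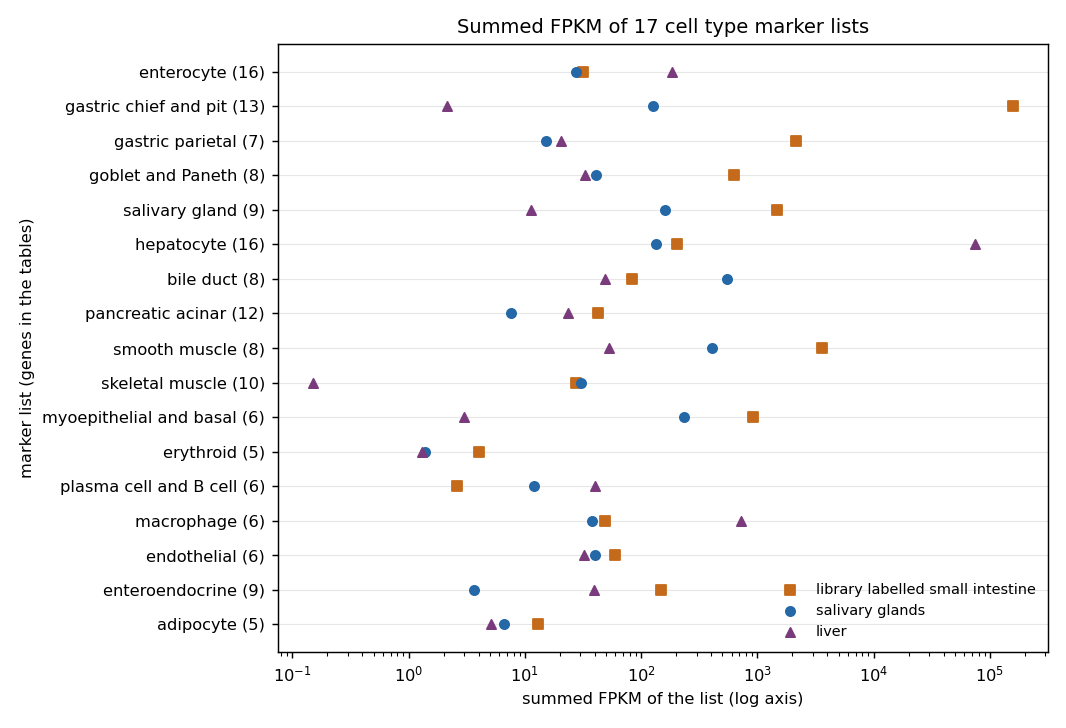
Summed FPKM of each cell type marker list (rows, with the number of its genes in the tables) in the 3 libraries, on a log axis. The gastric chief and pit list is the highest in the intestine-labelled library (159568) and the hepatocyte list in the liver library (75032), and the enterocyte list is highest in the liver library, where MGAM (gene10946) has an FPKM of 114.

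Symbols of the annotation can stand for a paralog: 69 of the 127 members carried another name in their NR or KEGG entry than in their Swiss-Prot entry, and the members are named here by the former. By that name 108 members belong to the families of the rule, 2 are PDZ-domain cofactors of sodium-proton exchange (SLC9A3R1 and SLC9A3R2), and 17 are other proteins, among them 5 acid-sensing channels (ASIC1 to ASIC5) under the symbol SCNN1B and 4 ABC proteins under the symbol CFTR. No anoctamin and no KCNK channel had a Swiss-Prot symbol, so the rule took 0 genes of either kind; those on the role lists below are given by product name and said not to be members.

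Among the 125 members, 67 had an FPKM above 1 in the intestine-labelled library, 53 for salivary gland and 40 for liver. These are 53.6%, 42.4% and 32.0% of the members, beside 59.4%, 56.3% and 57.02% of all genes in the tables. The median FPKM of the members was 1.27, 0.431 and 0.154 in the same order, and that of all genes 2.16, 1.76 and 1.89. Above an FPKM of 1 in all 3 libraries were 33 members, and 48 were above it in none, including 14 without a fragment anywhere. Another 18 were above it in the intestine-labelled library alone, 7 in the salivary gland library alone and 2 in the liver library alone.

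The summed FPKM of the members was 1594 in the intestine-labelled library, 1222 for salivary gland and 667 for liver. As a share of all counts the members made 0.327%, 0.445% and 0.220%, and relative to the TMM-scaled totals used below 0.3841%, 0.3803% and 0.2187%, so which of the first 2 libraries is higher depends on the scale. Over all genes the median of FPKM relative to fragments per length and total was 1.30, 0.902 and 1.17, so FPKM stands higher against counts in the intestine-labelled library, which bears on every comparison of FPKM between libraries. The 3 highest members of each library made 60.5%, 41.5% and 38.7% of it. ATP1B1, the beta-1 subunit of the sodium pump, held 33.6% of the sum in the intestine-labelled library, and the glycerol and urea channel AQP9 20.1% in the liver library. By class, the sodium pump with its FXYD subunits took 65.7% of the sum in the intestine-labelled library, 45.5% for salivary gland and 23.9% for liver. Cation-chloride cotransporters took 1.24%, 5.53% and 0.819%, chloride channels and exchangers 5.05%, 14.3% and 9.32%, and aquaporins 2.82%, 9.85% and 24.9%. Other proteins under a family symbol made 22.8% of the sum in the liver library.

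**Figure D2:**
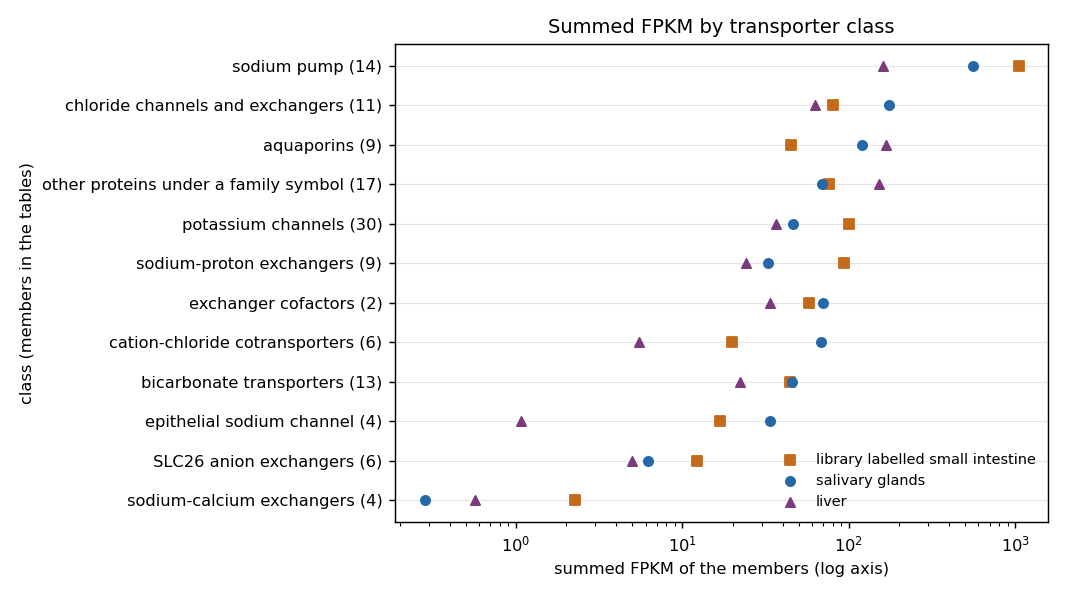
Summed FPKM of the members of each class (rows, with the number of members in the tables) in the 3 libraries, on a log axis. In FPKM, the sodium pump is highest in the intestine-labelled library (1047) and aquaporins in the liver library (165.9). Cotransporters and chloride channels are highest in the salivary gland library (67.6 and 174.6). FXYD3 makes 321.5 of the sodium pump sum of 1047, and this FPKM is 3.96 times what its count and deposited length give. Orders by counts can differ, as for the sum of all members.

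To compare libraries, counts were scaled by TMM (trimmed mean of M-values, which sets most genes to no difference), and a gene was called where the ratio was at least 2-fold. Ratios were taken over genes with at least 20 fragments in the libraries compared; a count of 0 was replaced by 3 and the ratio then reads "at least". Each other ratio has an exact 95% Clopper-Pearson interval, which covers counting error only. Of the 125 members, 88 had 20 fragments or more over the 3 libraries, and 37 did not. A library led a gene where it was at least 2-fold above both others. The intestine-labelled library led 30 of the 88 members, where it led 11.3% of all genes tested. The salivary gland library led 16, beside 8.58% of all genes, and the liver library 7, beside 15.2%. The remaining 35 members were led by none, 39.8% of those tested, against 65.0% of all 17360 genes. The intestine-labelled and salivary gland libraries thus led a larger share of the members than of all genes, and the liver library a smaller share.

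**Figure D3:**
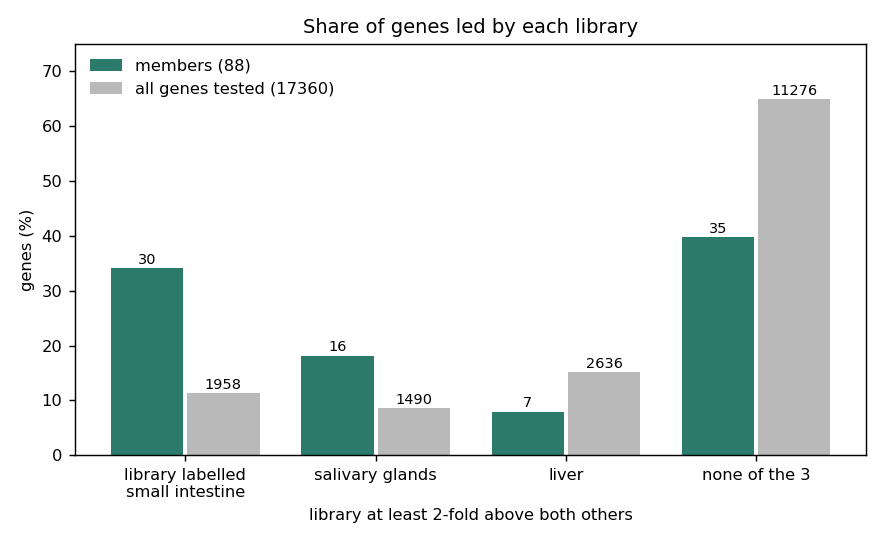
Share of members (88) and of all genes tested (17360) that each library led by at least 2-fold over both others; the numbers above the bars are gene counts. The intestine-labelled library led 34.1% of the members and the salivary gland library 18.2%.

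Against the intestine-labelled library, 20 of 82 members tested were higher in the salivary gland library, where 15.9% of all genes were, and 33 were lower, where 18.9% of all genes were. Against the liver library, 33 of 73 members were higher in the salivary gland library, beside 22% of all genes, and 16 were lower, beside 23.6%. The intestine-labelled library was above the liver library for 49 of 81 members, beside 22.9% of all genes, and below it for 11, beside 23.2%. The median log2 ratio of the members was -0.48, 0.75 and 1.76 in these 3 comparisons, and that of all genes 0.02, -0.06 and -0.08. The comparisons share libraries and are not independent of each other.

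**Figure D4:**
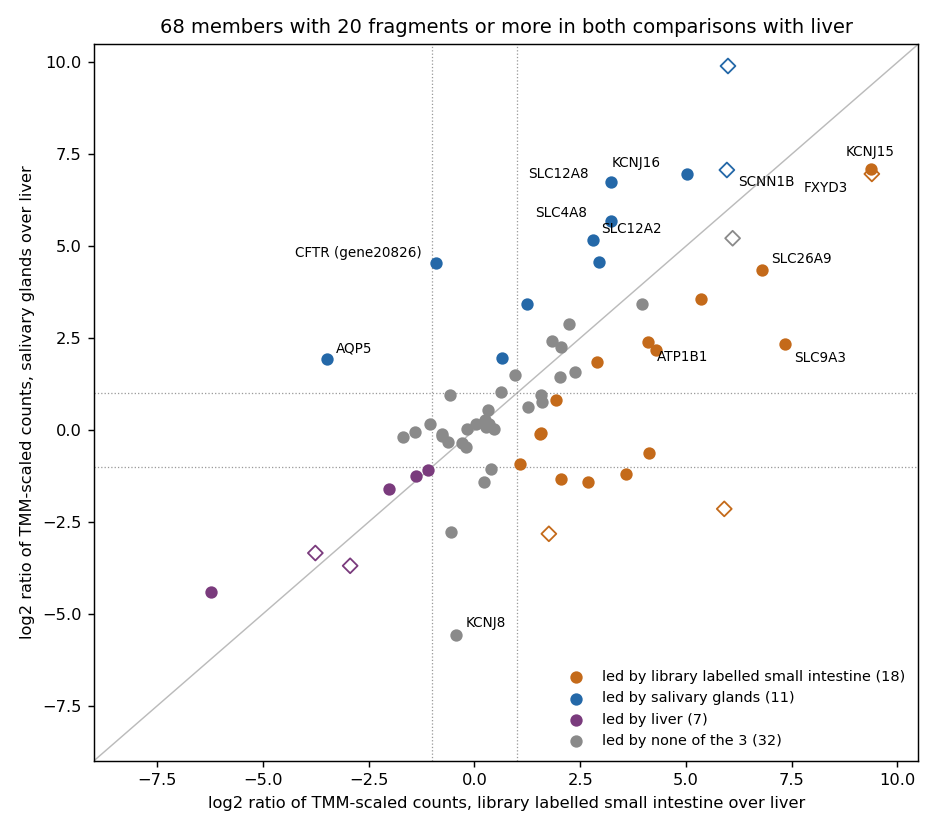
Log2 ratio of TMM-scaled counts to the liver library, for the intestine-labelled library (horizontal) and the salivary gland library (vertical), over the 68 members with 20 fragments or more in both comparisons. Dotted lines mark 2-fold, open diamonds the 8 members with a count of 0 in a library, and members above the diagonal are higher in the salivary gland than in the intestine-labelled library.

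Basolateral loading was the role with the highest summed FPKM in the intestine-labelled and salivary gland libraries. SLC12A2, the cotransporter that loads chloride in salivary acini, had an FPKM of 7.51 in the intestine-labelled library, 40.8 for salivary gland and 1.36 for liver, from 360, 2112 and 88 fragments. The salivary gland library was highest, 5.22-fold above the intestine-labelled library (interval 4.66 to 5.85) and 36.1-fold above the liver library (29.2 to 45.3).

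ATP1B1, a subunit that brings the sodium pump to the membrane, had another order. Its FPKM was 535, 159.6 and 32.5 (7894, 2745 and 781 fragments), so that the intestine-labelled library was 3.23-fold above the salivary gland library (3.10 to 3.38) and 17.1-fold above the liver library (15.9 to 18.4). The beta-3 subunit ATP1B3 varied little, with an FPKM of 24.0, 22.0 and 32.2, and passed 2-fold in no comparison.

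Of the basolateral bicarbonate carriers, SLC4A2 and SLC4A4 were lowest in the salivary gland library. SLC4A2, which exchanges chloride for bicarbonate, had an FPKM of 32.3, 10.9 and 20.5 (1326, 551 and 1724 fragments), the salivary gland library being 2.71-fold (2.45 to 2.99) below the intestine-labelled and 2.08-fold (1.89 to 2.29) below the liver library. Both ratios fell under 2-fold with counts scaled by total only, and the ratio to the liver library also by the upper quartile and in FPKM. SLC4A4, the electrogenic sodium-bicarbonate cotransporter, had 64, 0 and 32 fragments and an FPKM of 1.03 in the intestine-labelled library, and was at least 24.0-fold lower in the salivary gland library. SLC4A7, which carries sodium and bicarbonate into the cell, lies in 4 gene models; the longest, gene17572, had an FPKM of 1.78, 1.12 and 0.521, and gene10960, gene19045 and gene26977 had at most 8 fragments in any library.

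Apical anion exit differed in kind between the libraries. CFTR, the chloride channel opened by cyclic AMP, lies in 2 gene models on different scaffolds, gene20826 and gene24896, which may be pieces or copies of it, so its level is uncertain. The first had an FPKM of 0.211, 11.05 and 0.569 (5, 249 and 16 fragments), and the second 0.186, 3.46 and 0.126 (6, 114 and 6 fragments). Both were highest in the salivary gland library. The ratios to the intestine-labelled library were 44.3-fold (18.7 to 137.6) and 16.9-fold (7.53 to 47.01), and those to the liver library 23.4-fold (14.2 to 41.6) and 28.6-fold (12.8 to 79.6).

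ANO1, the calcium-activated chloride channel of salivary acini and not a member by symbol, had an FPKM of 3.52, 7.29 and 5.74 (146, 301 and 440 fragments) and was led by none of the libraries. The exchanger or channel SLC26A9, known from gastric and airway epithelium, had an FPKM of 10.3, 1.69 and 0.0723 (463, 94 and 7 fragments). The intestine-labelled library was highest, 5.54-fold (4.43 to 6.99) above the salivary gland library and 112.0-fold (53.9 to 280.0) above the liver library.

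SLC26A3, the chloride-bicarbonate exchanger of the lower gut, had 2, 0 and 16 fragments, and SLC26A4, pendrin, 1, 1 and 0. The 2 gene models of SLC26A7, known from the parietal cell and not members by symbol, had 8 (gene23737) and 1 (gene10208) fragments in the intestine-labelled library and 0 elsewhere. CLCN2, a chloride channel gated by hyperpolarisation, had an FPKM of 1.47, 1.55 and 1.03. CLCA1, a secreted regulator of chloride currents, had an FPKM of 0.916 in the intestine-labelled library (33 fragments), with 1 and 6 fragments in the others. CLCA2, not a member, had an FPKM of 4.14 (gene20728, 73 fragments) and 3.54 (gene22428, 8 fragments) in the intestine-labelled library and 0 in the others, and the CLCA4-like gene had none. No gene with the name SLC26A6 was found. Membrane side was not measured, so apical anion exit names a list here and not a shown location of each protein. Of the 13 genes of the role, 5 were above an FPKM of 1 in the intestine-labelled library, 5 for salivary gland and 2 for liver, beside 59.4%, 56.3% and 57.02% of all genes.

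**Figure D5:**
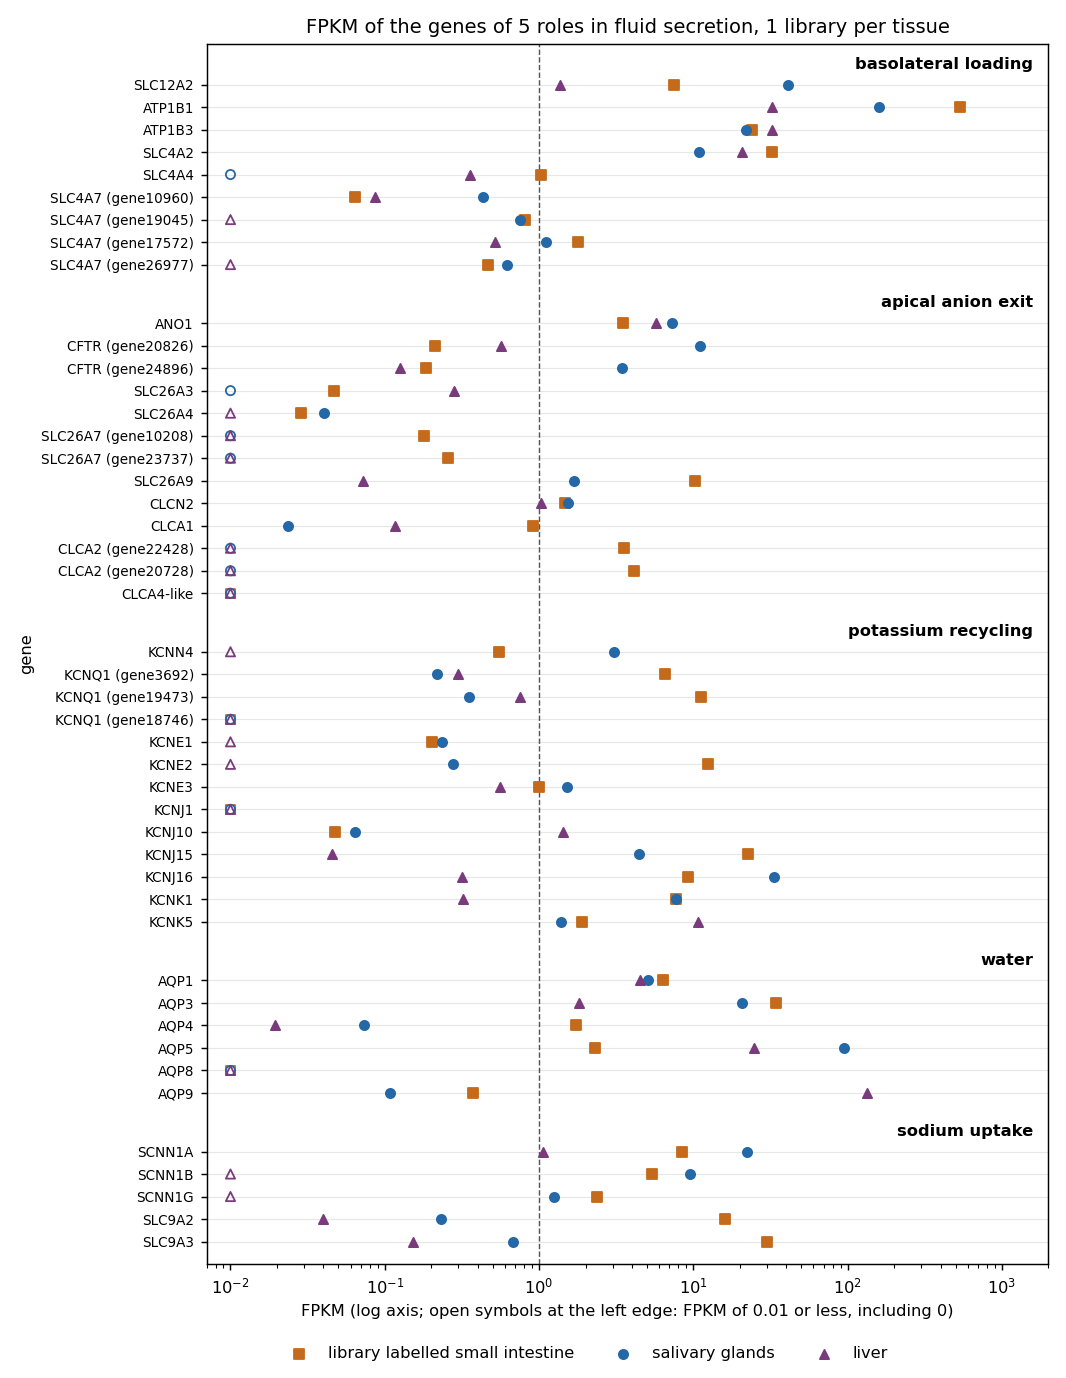
FPKM of genes of the 5 role lists in the 3 libraries, on a log axis with a dashed line at an FPKM of 1. SLC12A2, CFTR, KCNN4, KCNJ16, AQP5, SCNN1A and SCNN1B are highest in the salivary gland library; ATP1B1, SLC26A9, KCNQ1, KCNE2, KCNJ15, SLC9A2 and SLC9A3 in the intestine-labelled library; and AQP9 and KCNK5 in the liver library.

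Outside the role lists, BSND, a chloride channel subunit and not a member, had an FPKM of 7.19, 7.29 and 0.381 from 109, 250 and 21 fragments; it passed 2-fold between the first 2 libraries by counts, while its FPKM was near equal in them. CLCN7, the lysosomal chloride-proton exchanger, had an FPKM of 44.5, 72.6 and 29.1 (1635, 2414 and 1779 fragments) and was called only against the liver library, 2.04-fold (1.92 to 2.17). The endosomal CLCN3 had an FPKM of 12.9, 20.04 and 22.6 and passed 2-fold in no comparison.

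SLC12A8, described both as a cotransporter relative and as a carrier of a nicotinamide nucleotide, had an FPKM of 1.74, 20.02 and 0.186 (39, 503 and 7 fragments). Its salivary gland value was 11.5-fold (8.28 to 16.3) above the intestine-labelled and 108-fold (52.1 to 270.5) above the liver value. SLC4A11, a relative of the bicarbonate transporters named for borate in the annotation, had an FPKM of 0.292, 11.25 and 0.0215 (10, 622 and 3 fragments), with ratios of 55.3-fold (29.9 to 115.9) and 312-fold (106 to 1518). SLC4A8, a sodium-driven chloride-bicarbonate exchanger, had 33, 206 and 6 fragments and was 5.55-fold (3.83 to 8.28) and 51.7-fold (23.4 to 142.5) higher in the salivary gland library. Its FPKM of 2.64, 18.9 and 0.332 was 7.16 times what its salivary gland count and deposited length give, so its level per length is uncertain. All 3 genes were thus highest in the salivary gland library.

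Among potassium channels the lead was split. KCNN4, the calcium-activated channel of salivary acini, had an FPKM of 0.551 and 3.07 in the intestine-labelled and salivary gland libraries (12 and 81 fragments), a ratio of 6.004-fold (3.26 to 12.1). In the liver library its count was 1 with an FPKM of 1.45e-08. KCNJ16, an inward rectifier that pairs with KCNJ10 or KCNJ15, had an FPKM of 9.22, 33.1 and 0.317 (193, 824 and 10 fragments) and was 3.80-fold (3.24 to 4.47) and 124-fold (67.1 to 259.7) higher in the salivary gland library. Its known partner KCNJ15 had an FPKM of 22.6, 4.42 and 0.0454 (788, 183 and 2 fragments), with the intestine-labelled library 4.84-fold (4.12 to 5.72) above the salivary gland library. The other partner, KCNJ10, had 1, 4 and 128 fragments and led in the liver library, at an FPKM of 1.43.

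KCNQ1, a voltage-gated channel that carries the apical potassium current of parietal cells together with KCNE2, lies in 3 gene models, 1 of which (gene18746) had no fragment. The others, gene3692 and gene19473, had FPKM values of 6.57 and 11.2 in the intestine-labelled library, 0.217 and 0.354 in the salivary gland library, and 0.299 and 0.751 in the liver library. They were 27.2-fold (12.2 to 75.3) and 27.3-fold (15.01 to 55.3) above the salivary gland library. KCNE2 had 79, 3 and 0 fragments and an FPKM of 12.5 in the intestine-labelled library, 29.6-fold (9.77 to 146.6) above the salivary gland library. KCNQ1, KCNE2 and KCNJ15 were thus highest in the library in which the proton pump subunits ATP4A and ATP4B were at 1073 and 652, against 0.941 and 1.27 for salivary gland and 0 for liver.

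KCNE1, the cardiac and inner ear partner of KCNQ1, had 6, 7 and 0 fragments, KCNJ1 had none, and KCNE3, an epithelial partner that is not a member by symbol, had an FPKM of 1.001, 1.52 and 0.555. The background channels KCNK1 and KCNK5, not members either, had FPKM values of 7.72, 7.75 and 0.320, and of 1.89, 1.38 and 10.7. In FPKM, KCNK1 was near equal in the first 2 libraries and KCNK5 was highest in the liver library. KCNJ8, the pore of an ATP-sensitive channel of vascular and other smooth muscle, had an FPKM of 23.3, 0.558 and 30.4 (437, 14 and 1000 fragments) and was 35.1-fold (20.7 to 64.7) lower in the salivary gland than in the intestine-labelled library. Of the 30 potassium channel members, 11 were above an FPKM of 1 in the intestine-labelled library, 4 for salivary gland and 2 for liver, beside 59.4%, 56.3% and 57.02% of all genes. These libraries led 9, 3 and 2 of them, with 11 of the 30 not tested, beside 11.3%, 8.58% and 15.2% of all genes tested.

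Water channels gave each library its own leading gene. AQP5, the apical water channel of salivary acini, had an FPKM of 2.29, 94.3 and 24.7 (22, 1051 and 419 fragments). This FPKM was 2.07, 1.46 and 1.68 times what its count and deposited length give, so its level per length is uncertain. The salivary gland library was 42.5-fold (27.9 to 68.1) above the intestine-labelled and 3.78-fold (3.37 to 4.24) above the liver library. AQP9, which passes glycerol and urea in hepatocytes and has the symbol AQP3 in its Swiss-Prot entry, had an FPKM of 0.375, 0.108 and 134 (9, 3 and 4896 fragments), and the liver library was 321-fold (169 to 703) above the intestine-labelled library. AQP3 itself (gene5702), a basolateral water and glycerol channel, had an FPKM of 34.2, 20.5 and 1.83, with 1.44-fold (1.26 to 1.65) between the first 2 libraries and 10.7-fold (8.10 to 14.5) and 15.5-fold (11.7 to 20.8) of each over the liver library.

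AQP4, known from the basolateral membrane of parietal cells and from brain, had 65, 3 and 1 fragments and an FPKM of 1.72 in the intestine-labelled library, 24.4-fold (7.98 to 121) above the salivary gland library. AQP1, the water channel of endothelium, was near equal at 6.35, 5.10 and 4.52 and passed 2-fold in no comparison, while the endothelial marker PECAM1 had an FPKM of 23.9, 12.8 and 18.1. AQP8, not a member by symbol, and AQP10 had no fragment in any library. AQP7, an adipocyte glycerol channel beside AQP3 on its scaffold, had 0, 2 and 39 fragments.

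In sodium uptake, other genes were highest in the salivary gland than in the intestine-labelled library. SCNN1A, the alpha subunit of the amiloride-sensitive sodium channel of salivary ducts, had an FPKM of 8.44, 22.1 and 1.05 (397, 1381 and 87 fragments), 3.09-fold (2.77 to 3.47) above the intestine-labelled and 23.9-fold (19.2 to 30.03) above the liver library. The beta subunit SCNN1B had an FPKM of 5.41, 9.53 and 0 (111, 268 and 0 fragments). By counts it was 2.15-fold (1.72 to 2.70) higher in the salivary gland than in the intestine-labelled library, but under 2-fold in FPKM. The gamma subunit SCNN1G had an FPKM of 2.38, 1.25 and 0 (122, 74 and 0 fragments), and its difference between the first 2 libraries did not reach 2-fold. Against the liver library the beta subunit was at least 134.5-fold higher in the salivary gland library and the gamma subunit at least 37.1-fold.

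The apical sodium-proton exchangers had the reverse order. SLC9A3, the exchanger of absorptive epithelia, had an FPKM of 30.1, 0.675 and 0.153 (868, 30 and 9 fragments), and SLC9A2, found in stomach and colon, had 15.9, 0.231 and 0.0396 (450, 8 and 2 fragments). The intestine-labelled library was 32.5-fold (22.6 to 48.5) and 63.2-fold (31.8 to 147) above the salivary gland library. SLC9A4, a gastric exchanger of the basolateral side of parietal cells, had an FPKM of 5.53 and 342 fragments in the intestine-labelled library and 0 in both others, at least 128-fold. Its ratio to the next library was the largest among the 30 members that this library led. Of 9 sodium-proton exchangers, 8 were above an FPKM of 1 in the intestine-labelled library and 5 in each of the others, where 59.4%, 56.3% and 57.02% of all genes were. The organellar exchanger SLC9A8 passed 2-fold in no comparison, with an FPKM of 6.51, 8.64 and 9.76.

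The FXYD proteins, small subunits that tune the sodium pump, were spread over the libraries. FXYD3 had an FPKM of 321.5, 55.6 and 0 (1196, 249 and 0 fragments), 5.40-fold (4.71 to 6.22) lower in the salivary gland than in the intestine-labelled library and at least 125-fold above the liver library. Its FPKM was 3.96 times what its count and deposited length give in the intestine-labelled library. FXYD2, the gamma subunit known from kidney, had 3, 129 and 0 fragments and an FPKM of 24.9 in the salivary gland library, 38.3-fold (12.8 to 187.9) above the intestine-labelled library. FXYD6 had an FPKM of 16.5, 22.6 and 4.04, and FXYD1, the phospholemman of muscle, 10.4, 12.2 and 14.3.

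A member known from muscle was highest in the intestine-labelled library, in which the smooth muscle markers were high. SLC8A1, the sodium-calcium exchanger of heart and smooth muscle, had an FPKM of 1.68, 0.163 and 0.514 (276, 30 and 114 fragments), a ratio of 10.3-fold (7.08 to 15.6) over the salivary gland library. Smooth muscle genes such as MYH11 had an FPKM of 638, 41.05 and 0.299, and DES 754, 9.86 and 0.205; their part in these values was not tested. The erythrocyte anion exchanger SLC4A1 had no fragment in any library, and beta-globin (HBB, gene18135) had 15, 0 and 4.

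SLC26A1, a sulfate carrier, had an FPKM of 1.32, 3.19 and 3.35 and was 2.82-fold (2.02 to 3.98) higher in the salivary gland than in the intestine-labelled library. The exchanger cofactor SLC9A3R1 had an FPKM of 20.5, 53.0 and 24.4, and SLC9A3R2 had 37.1, 16.9 and 9.06. Of the 17 other proteins under a family symbol, the lysosomal cobalamin transporter ABCD4 (FPKM 12.5, 16.4 and 55.1) and the ribosome recycling factor ABCE1 (15.1, 16.9 and 52.5) had the highest FPKM in any library, and both were led by the liver library. Neither is a channel of secretion. With ABCA6 they made 3 of the 7 members led by the liver library.

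Some members lie side by side. Among family members, 15 pairs were separated by at most 2 other genes on a scaffold, and neighbours could differ in level. AQP5 stands between AQP2 and AQP6, 1.47 and 5.18 kb away, which had at most 1 and 4 fragments in any library. FXYD2 and FXYD6 are 6.798 kb apart, with salivary gland FPKM values of 24.9 and 22.6, and liver values of 0 and 4.04. KCNJ16 is 18.6 kb from KCNJ2, which had an FPKM of 1.16, 0.859 and 0.979. SLC9A2 and SLC9A4, 47.1 kb apart, were both highest in the intestine-labelled library.

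The wider pathway was read from lists of genes that are not members. Of 17 genes of secretagogue receptors, 8, 4 and 6 were above an FPKM of 1 in the intestine-labelled, salivary gland and liver libraries, beside 59.4%, 56.3% and 57.02% of all genes. These libraries led 3, 2 and 4 of the 14 tested, beside 11.3%, 8.58% and 15.2% of all genes tested. VIPR1, a receptor for vasoactive intestinal peptide, was highest in the salivary gland library at 16.5. CHRM3, the muscarinic receptor that drives salivary fluid, had an FPKM of 3.92, 9.91 and 0.0189 (274, 819 and 2 fragments). Of 24 genes of calcium signalling, 19, 20 and 18 were above 1 (all genes 59.4%, 56.3% and 57.02%), and 3, 4 and 3 of 22 tested were led by these libraries (all genes 11.3%, 8.58% and 15.2%). By total counts the intestine-labelled library led 1 of them. The calcium pump ATP2A2 (gene12077; 23.9, 24.1 and 64.9) was highest of the list in the liver library and ATP2B4 (41.6, 1.69 and 2.70) in the intestine-labelled library.

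Of 20 genes of cyclic AMP signalling, 8 of 17 tested were led by the intestine-labelled library and 0 by the others (all genes 11.3%, 8.58% and 15.2%), and 17, 15 and 16 were above 1 (all genes 59.4%, 56.3% and 57.02%). The G protein subunit GNAS had an FPKM of 209, 174 and 107, and the membrane linker EZR 131, 49.5 and 22.4. Scaled by total counts only, the intestine-labelled library led 3 of them. Among 16 genes of kinases and ligases that set ion transporters, 2, 1 and 2 of 12 tested were led by the 3 libraries (all genes 11.3%, 8.58% and 15.2%). By total counts the salivary gland library led 2, and by the upper quartile the liver library led 1. SGK1, a kinase that raises sodium channel number, had an FPKM of 32.02, 7.75 and 189, and its relative SGK2 had 36.8, 0.0694 and 5.97. WNK2 was the gene led by the salivary gland library, at 4.54, 14.1 and 0.169. Of 26 genes of other channels and pumps, 18, 16 and 7 were above 1 (all genes 59.4%, 56.3% and 57.02%) and 5, 2 and 0 of 22 tested were led (all genes 11.3%, 8.58% and 15.2%), with ATP4A and ATP4B highest in the intestine-labelled library. The salivary gland library led BSND and TTYH2.

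Within the role lists, the salivary gland library led 2 of 8 tested genes of basolateral loading, 2 of 7 of apical anion exit, 2 of 10 of potassium recycling, 1 of 5 of water and 2 of 5 of sodium uptake, beside 8.58% of all genes. The intestine-labelled library led 2, 3, 4, 1 and 2 of them, beside 11.3% of all genes, and the liver library 0, 0, 2, 1 and 0, beside 15.2%. Summed FPKM over a role was 732, 502 and 162 for loading, 24.8, 25.1 and 7.93 for anion exit, 73.5, 52.4 and 14.4 for potassium recycling, 44.9, 120.2 and 165.1 for water, and 62.2, 33.8 and 1.25 for sodium uptake. The sums of anion exit were made mostly by CFTR (gene20826) and ANO1 in the salivary gland library and by SLC26A9 and the CLCA2 models in the intestine-labelled library. The CLCA2 models are annotated as regulators of a chloride channel, and gene22428 rests on 8 fragments. They made 7.67 of the sum of 24.8 and 0 of that of 25.1, so these near-equal sums do not compare exit pathways alone.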

How the data were processed

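RNA of 3 tissues of 1 adult female was sequenced in pairs, 1 library per tissue. After trimming, the authors mapped the reads with TopHat2 and built new genes with Cufflinks; they name RSEM for FPKM, while the genome build and the tool behind the deposited counts are not given in the sources used here. The deposited count is a whole number of fragments per gene, not scaled between libraries. The authors made the FPKM from the fragments of a gene, its transcript length and the mapped fragments. A score deposited by the authors is the fragments times 1 factor per library; by it, 25.3%, 25.4% and 26.2% of genes in the intestine-labelled, salivary gland and liver libraries have a count more than 0.5 above the fragments, at most by 1.43, as when estimates are rounded up, so a count of 1 can stand for near 0. FPKM can also rest on another length than the deposited one: in 5 of 84 members with 20 fragments or more in a library it was over 2 times the value from count and length. Reads shared by similar paralogs, or by overlapping genes, may have been split between them.

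Values were computed in Python 3.11.15 (numpy 2.4.6, scipy 1.17.1, pandas 2.3.3, matplotlib 3.10.9). TMM factors (0.851, 1.17 and 1.005) came from edgeR 4.0.16 and median-of-ratios factors from DESeq2 1.42.0 in R 4.3.3. All genes of the tables entered the scaling. Calls, of 2-fold over genes with at least 20 fragments, were run on simulated data to check the calculation. The simulation gave all libraries the same gene shares, raised some genes in the salivary gland library, and held counting error only. It cannot show how often calls between these tissues are right, because the real libraries differ in composition and have no replicates. Alternatives were other scalings, thresholds, fragment minimums, member sets, FPKM ratios and the MA-plot test with random sampling of DEGseq, written anew. In CPM (fragments relative to the library total), a count of 0 allows at most 0.295, 0.361 and 0.206 for the intestine-labelled, salivary gland and liver libraries.

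Members, classes and lists were chosen with earlier results of these data known. Names by NR or KEGG product, the classes that follow from them and the genes found for each list were set after values were seen, and so were the alternatives by product name, before rounding and without 1 library, and the scalings of the role and pathway lists. The genes named in the text are, per class, the 2 members with the highest FPKM above 1, all genes of the role lists, for each library the 3 members it led by the largest ratio, and 1 or 2 genes with the highest FPKM per pathway and cell type list. Not every gene that these rules pick is given. Others were named after their values were seen. RefSeq symbols were not used, because the identifiers of these files are absent from that table. No sequence is shown.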

Additional observations from a re-analysis of the deposited data

How the results depend on the processing

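Of 242 values under alternatives, 212 stayed within 1.5 times the count reported or, for sums, within counting error. Above an FPKM of 5, 37, 31 and 19 members were expressed in the intestine-labelled, salivary gland and liver libraries. As TPM (FPKM rescaled to the same sum in each library) the sums were 2229, 2048 and 1071; without the members under the symbols SLC9A3R1 and SLC9A3R2, which name regulators and not transporters, 1518, 1134 and 611.9; without the highest member 1059, 969.5 and 533.2; and, chosen after seeing the data, with only members named as proteins of the families 1460, 1083 and 481.8, and with families by product name 1156 and 632.6 in the last 2 libraries. The order of the libraries held in each of these, all made from FPKM, but not by share of total counts (0.327%, 0.445% and 0.220%). At 4-fold, 11 members were higher in the salivary gland than in the intestine-labelled library, 8 lower than in the liver library, and 6 lower in the intestine-labelled than in the liver library; the salivary gland library led 10 and the liver library 4. Lower in the salivary gland than in the liver library were 10 with the counting interval past 2-fold and 8 with an FPKM above 1. With only members named as proteins of the families the liver library led 4. Scaling by total counts moved the median log2 ratio of all genes by 0.46 for salivary gland over intestine-labelled library, 0.22 for salivary gland over liver and -0.24 for intestine-labelled over liver; median-of-ratios and upper quartile moved none by over 0.1. In the first comparison 66.4% of all calls were then higher in the salivary gland library, in place of 45.7%, and 45.3% of the members' calls in place of 37.7%. Under total counts the intestine-labelled library led 1 gene of calcium and 3 of cyclic AMP signalling, the salivary gland library 2 kinase or ligase genes, and the liver library 1 other channel; under the upper quartile the liver library led 1 kinase or ligase gene. The cause was not tested. Of 109 called ratios of named genes, 105 remained past 2-fold under total counts, 109 under median-of-ratios and 108 under upper quartile, and none changed direction. No paired analysis was possible because each tissue has 1 library. Depth left members under 20 fragments without a ratio.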

Other observations

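Genes of the same families that lack a fitting Swiss-Prot symbol were found by product name, after values were seen. There were 50, of which 48 had no Swiss-Prot symbol and 48 were in the expression tables. Above an FPKM of 1 were 23 in the intestine-labelled, 15 in the salivary gland and 11 from the liver library, beside 59.4%, 56.3% and 57.02% of all genes, and these libraries led 7, 3 and 3 of 24 tested, beside 11.3%, 8.58% and 15.2% of all genes tested. ANO6, a calcium-activated scramblase and channel, had an FPKM of 36.1, 11.2 and 95.3 in this order, and was led by the liver library. ANO9 lies in 2 gene models, gene24610 at 16.07, 0.745 and 0.163 and gene26567 at 12.9, 0.851 and 0.381. KCNE4, a subunit that dampens KCNQ1 and is known from smooth muscle, had 12.6, 0.131 and 0.0459, and KCNK6 had 5.79, 15.4 and 2.15. SLC12A7, a potassium-chloride cotransporter, was highest in the liver library, at 5.51, 6.32 and 18.5.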
